A study of Bos taurus with 14 samples.

Results

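Long chain fatty acids reach the mitochondrial matrix of muscle through the carnitine shuttle, and 8 genes of this shuttle and of its malonyl-CoA control were compared between cattle of 2 production systems, outdoor/pasture-fed and indoor/concentrate-fed. They are *SLC22A5*, *CPT1B*, *SLC25A20*, *CPT2*, *CRAT*, *ACACB*, *ACACA* and *MLYCD*, taken by gene symbol from the 9155 genes that the probe annotation names singly. Together they have 11 of the 24016 bovine probe sets on the array, and each gene is read here by its brightest probe set, that of the highest mean over the 14 arrays. A probe set is a group of short oligonucleotides that reads 1 transcript.

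The samples were *M. longissimus dorsi* (LD) muscle of Charolais × Limousin crossbred heifers, 7 outdoor/pasture-fed and 7 indoor/concentrate-fed, with 1 Affymetrix GeneChip Bovine Genome Array per animal. The outdoor/pasture-fed heifers grazed a ryegrass, meadow grass and clover sward. The indoor/concentrate-fed heifers were housed throughout and received concentrate with barley straw. Diet and housing thus differed together between the systems and cannot be told apart. The animals of each system were kept in several management groups that the labels do not name, and every test treats the animals as independent.

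Inside muscle cells, carnitine is taken up by SLC22A5. CPT1B, the muscle form of carnitine palmitoyltransferase 1 on the outer mitochondrial membrane, joins it to an activated fatty acid, SLC25A20 exchanges the acylcarnitine across the inner membrane, and CPT2 releases the fatty acid as acyl-CoA in the matrix. CRAT does the like exchange for short acyl groups such as acetyl. Malonyl-CoA inhibits carnitine palmitoyltransferase 1. It is made by the acetyl-CoA carboxylases ACACB, the mitochondria-associated form prominent in muscle, and ACACA, the cytosolic form that serves fatty acid synthesis, and it is broken down by malonyl-CoA decarboxylase, MLYCD.

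Of the 8 genes, 7 varied over the arrays, and 6 of these 7 had a higher mean in the outdoor/pasture-fed cattle. A probe set is called varying where its 14 values had a standard deviation (SD) over 0.01, which held for 9623. A positive difference, meaning outdoor/pasture-fed less indoor/concentrate-fed in log2 units, was found for 47.5% of these and 48.2% of all. The median over the 7 varying genes was 0.37, beside -0.01 over all varying probe sets. None of the 8 passed an adjusted p of 0.05 in limma over all 24016 probe sets, where 0.0167% passed in either direction and 0.0125% with a higher outdoor mean. An unadjusted p under 0.05 with a higher mean outdoors was found for 5 of the 8, against 5.35% of all and 9.23% of the varying probe sets, and with a lower mean for none of the 8, against 6.07% of all and 10.7% of the varying probe sets. These 5 were *CPT1B*, *CPT2*, *SLC25A20*, *ACACB* and *MLYCD*.

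**Figure D1:**
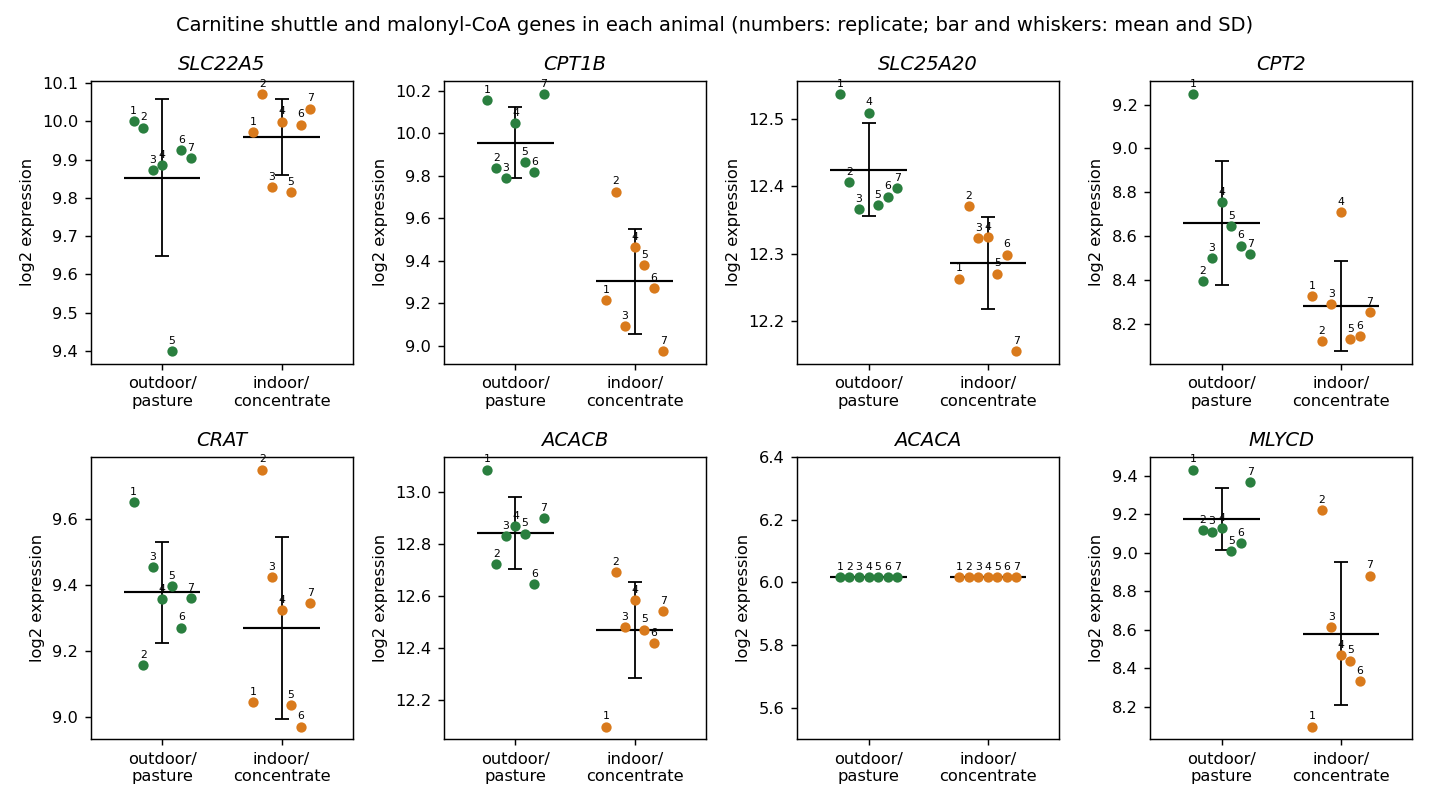
Log2 expression (vertical axes) of the 8 genes, with 1 point per animal numbered by replicate, green for the 7 outdoor/pasture-fed and orange for the 7 indoor/concentrate-fed heifers. Bars are means and whiskers SD. The groups are apart for *CPT1B* (9.79 and above outdoors, 9.73 and below indoors), overlap for the other varying genes, and *ACACA* lies at 6.02 on every array.

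*SLC22A5*, the plasma membrane carnitine transporter, was the only varying gene of the 8 with a lower mean outdoors. Replicates 1 to 7 were at 10.00, 9.98, 9.87, 9.89, 9.40, 9.93 and 9.90 in the outdoor/pasture-fed cattle. In the indoor/concentrate-fed cattle they were at 9.97, 10.07, 9.83, 10.00, 9.82, 9.99 and 10.03. The groups overlapped widely, with outdoor/pasture-fed replicate 5 far below all the other animals. The difference was -0.11 (SE 0.09, adjusted p = 0.700 from limma, exact permutation p = 0.251), and without that animal it was -0.03. A second probe set of the gene differed by -0.03 (SE 0.08, adjusted p = 0.928 from limma).

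*CPT1B*, which commits long chain fatty acids to the shuttle, was higher in every outdoor/pasture-fed animal than in any indoor/concentrate-fed animal. Outdoors, replicates 1 to 7 were at 10.16, 9.84, 9.79, 10.05, 9.86, 9.82 and 10.19. Indoors they were at 9.21, 9.73, 9.09, 9.46, 9.38, 9.27 and 8.98, so that indoor/concentrate-fed replicate 2 came within 0.1 of the lowest outdoor animal and the others lay well below. It was the only gene of the 8 whose groups did not overlap, a separation with a higher outdoor level that 0.217% of all and 0.488% of the varying probe sets showed. The opposite separation was shown by 0.154% of all and 0.322% of the varying probe sets, and by none of the 8. The mean was 9.96 ± 0.17 (SD, n = 7) outdoors and 9.30 ± 0.25 (SD, n = 7) indoors, a 1.57-fold difference of 0.65 (SE 0.11, exact permutation p = 0.000583, the smallest the design allows).

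With all probe sets in the adjustment, limma gave *CPT1B* an adjusted p of 0.105. With the varying ones alone it gave 0.0249, where 0.343% passed and 0.208% with a higher outdoor mean. By size of difference it exceeded 98.7% of the varying probe sets, and by p it was the 12th of them. The study had picked this gene as differentially expressed on the same arrays, so its values here are no independent evidence. The study also reported a difference of this gene by quantitative PCR, in a larger set of animals that included those on the arrays. Leaving out 1 array moved the difference between 0.60 and 0.72. Among the varying probe sets the call was lost without outdoor/pasture-fed replicate 4 (adjusted p = 0.0587 from limma) and without indoor/concentrate-fed replicate 3 (adjusted p = 0.0610). Over all probe sets it was gained without indoor/concentrate-fed replicate 2 (adjusted p = 0.0490).

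*SLC25A20*, the carnitine-acylcarnitine translocase of the inner membrane, differed less in size but nearly as cleanly. The outdoor/pasture-fed replicates 1 to 7 were at 12.54, 12.41, 12.37, 12.51, 12.37, 12.38 and 12.40. The indoor/concentrate-fed replicates were at 12.26, 12.37, 12.32, 12.33, 12.27, 12.30 and 12.16. Of the outdoor animals, 6 lay above the highest indoor animal, replicate 2, and outdoor replicate 3 lay just under it. The difference was 0.14 (SE 0.04, adjusted p = 0.218 from limma, exact permutation p = 0.00117). The other probe set of the gene, which reads lower on the array at a mean of 10.14 against 12.36, differed by 0.29 (SE 0.09, adjusted p = 0.269 from limma, exact permutation p = 0.00816), so that the size of the difference of this gene, but not its sign, depended on the probe set.

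*CPT2*, the matrix acyltransferase that completes the transfer, had a higher mean outdoors, with a high animal in each group. Replicates 1 to 7 were at 9.25, 8.39, 8.50, 8.75, 8.64, 8.56 and 8.52 in the outdoor/pasture-fed cattle. In the indoor/concentrate-fed cattle they were at 8.33, 8.12, 8.29, 8.71, 8.13, 8.14 and 8.25. All 7 outdoor animals lay above the indoor mean, and 2 lay above the highest indoor animal. The difference was 0.38 (SE 0.13, adjusted p = 0.299 from limma, exact permutation p = 0.00932). It was 0.28 without outdoor/pasture-fed replicate 1 and 0.45 without indoor/concentrate-fed replicate 4.

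*CRAT*, the carnitine acetyltransferase that buffers acetyl-CoA, did not separate the systems. Its outdoor/pasture-fed replicates 1 to 7 were at 9.65, 9.16, 9.46, 9.36, 9.40, 9.27 and 9.36. Its indoor/concentrate-fed replicates were at 9.05, 9.75, 9.42, 9.33, 9.04, 8.97 and 9.35, so that the highest animal of all was indoor/concentrate-fed replicate 2. The difference was 0.11 (SE 0.12, adjusted p = 0.796 from limma, exact permutation p = 0.379). The spread was 0.15 outdoors and 0.28 indoors (SD, n = 7 each).

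**Figure D2:**
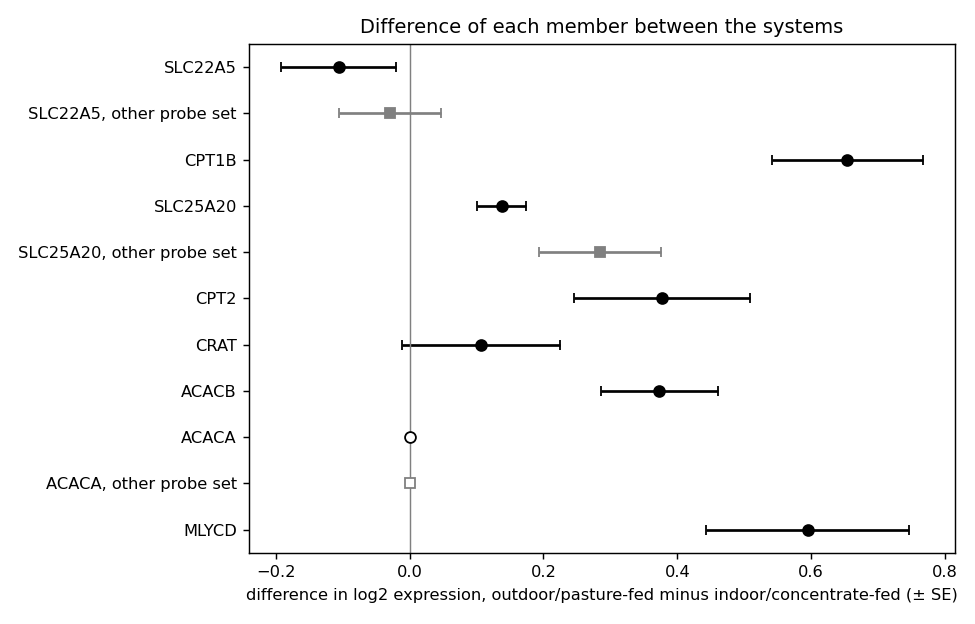
Difference in log2 expression, outdoor/pasture-fed minus indoor/concentrate-fed (horizontal axis), with its SE from limma, for the 11 probe sets of the 8 genes. Black circles are the probe sets with the highest mean, grey squares the others, and open symbols did not vary; *CPT1B* (0.65) and *MLYCD* (0.59) lie farthest to the right and *SLC22A5* (-0.11) alone lies below 0 among the black symbols that varied.

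Of the genes that set the level of malonyl-CoA, the muscle carboxylase and the decarboxylase both had higher means outdoors. *ACACB*, whose product makes malonyl-CoA at the mitochondrion, was at 13.09, 12.72, 12.83, 12.87, 12.84, 12.65 and 12.90 in outdoor/pasture-fed replicates 1 to 7. It was at 12.10, 12.69, 12.48, 12.58, 12.47, 12.42 and 12.54 in indoor/concentrate-fed replicates 1 to 7. The groups met at a single point, where outdoor/pasture-fed replicate 6 fell below indoor/concentrate-fed replicate 2. The mean was 12.84 ± 0.14 (SD, n = 7) outdoors and 12.47 ± 0.19 (SD, n = 7) indoors, a difference of 0.37 (SE 0.09, exact permutation p = 0.00117). Its adjusted p from limma was 0.182, or 0.0671 where the varying probe sets alone were adjusted.

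*MLYCD*, whose product turns malonyl-CoA back into acetyl-CoA, was even in the outdoor/pasture-fed cattle and scattered in the indoor/concentrate-fed cattle. The outdoor replicates 1 to 7 were at 9.43, 9.12, 9.11, 9.13, 9.01, 9.05 and 9.37. The indoor replicates were at 8.10, 9.22, 8.61, 8.47, 8.44, 8.33 and 8.88, and 6 of these 7 lay below every outdoor animal, while replicate 2 lay within the outdoor range. The mean was 9.17 ± 0.16 (SD, n = 7) outdoors and 8.58 ± 0.37 (SD, n = 7) indoors, a 1.51-fold difference of 0.59 (SE 0.15, exact permutation p = 0.00408). For this gene limma gave an adjusted p of 0.206, or 0.0766 with the varying probe sets alone. Without indoor/concentrate-fed replicate 2 the difference was 0.70, with an adjusted p of 0.107 from limma over all probe sets, and 2 genes of the 8, *CPT1B* and *MLYCD*, then passed among the varying probe sets, where 0.52% passed in that fit and 0.364% with a higher outdoor mean.

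*ACACA*, the carboxylase of fatty acid synthesis, gave no reading that could differ between animals. Its probe sets stood at 6.02 and 5.66 on all 14 arrays, with an SD of 1e-05. The summary method returns almost the same value on every array where it finds no variation across arrays that the probes share. Of the 24016 probe sets, 14393 did not vary, among them bright ones such as *ACTA1* (14.11) and *ENO3* (14.22). A flat value is thus no sign that a gene is off. The values of *ACACA* therefore say nothing of whether it differed between the systems.

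Whether the maker, the breaker and the target of malonyl-CoA moved by unequal amounts was tested on the difference of 2 log2 values within each animal, for 4 pairs of genes, with exact permutation p-values adjusted over the 4. The difference of *CPT1B* exceeded that of *ACACB* by 0.28 (SE 0.10, exact permutation p = 0.00991, adjusted p = 0.0198), and all 7 outdoor/pasture-fed animals lay above the indoor mean of this value. The 2 probe sets read at different levels, however, with means of 9.63 for *CPT1B* and 12.66 for *ACACB*, and of the *SLC25A20* probe sets the brighter gave the smaller difference (0.14 against 0.29). The part of probe set brightness in the unequal shifts was not tested. *ACACB* against *MLYCD* gave -0.22 (SE 0.10, exact permutation p = 0.0472, adjusted p = 0.0629), so the breaker had the larger outdoor difference in all 7 outdoor animals relative to the indoor mean, but the test did not pass. That test passed without indoor/concentrate-fed replicate 2, at -0.29 (exact permutation adjusted p = 0.00855), without indoor/concentrate-fed replicate 7, at -0.26 (exact permutation adjusted p = 0.0381), and without outdoor/pasture-fed replicate 5, at -0.25 (exact permutation adjusted p = 0.0497). *CPT1B* against *MLYCD* gave 0.06 (SE 0.14, exact permutation p = 0.710, adjusted p = 0.710), an error that leaves room for unequal shifts in either direction. *ACACB* against *ACACA* gave 0.37 (SE 0.09, exact permutation p = 0.00117, adjusted p = 0.00466), which restates the difference of *ACACB*, since *ACACA* was flat. The small p of this pair can lower the adjusted p-values of the other pairs, and the adjustment was not repeated without it. A pass just under the threshold, as at 0.0497, may rest on its inclusion.

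Within each group, animals with more *ACACB* message also had more *MLYCD* message. Since the groups are apart for *CPT1B*, relations were taken within each group of 7, and the p-values of the 6 relations were adjusted together. For *ACACB* with *MLYCD*, Pearson's r was 0.78 in the outdoor/pasture-fed cattle (exact permutation p = 0.0313, adjusted p = 0.0470, Spearman's rho 0.75, exact permutation p = 0.0663, adjusted p = 0.132). It was 0.83 in the indoor/concentrate-fed cattle (exact permutation p = 0.0242, adjusted p = 0.0470, rho 0.89, exact permutation p = 0.0123, adjusted p = 0.0714). Without the 2 animals farthest from the median of *ACACB*, r was 0.47 outdoors (exact permutation p = 0.358, n = 5, without replicates 1 and 6) and 0.50 indoors (exact permutation p = 0.367, n = 5, without replicates 1 and 2). Neither relation passed without those animals, whose removal also narrows the range of *ACACB*. With 5 animals the smallest possible exact permutation p is 0.00833, so a single relation could not pass after adjustment over the 6. These tests therefore cannot tell whether either relation rested on those animals.

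*CPT1B* followed both genes in the outdoor/pasture-fed cattle, and in the indoor/concentrate-fed cattle neither relation passed. With *ACACB*, r was 0.76 outdoors (exact permutation p = 0.0296, adjusted p = 0.0470, rho 0.86, exact permutation p = 0.0238, adjusted p = 0.0714) and 0.43 indoors (exact permutation p = 0.332, adjusted p = 0.398, rho 0.43, exact permutation p = 0.354, adjusted p = 0.424). With *MLYCD*, r was 0.87 outdoors (exact permutation p = 0.0192, adjusted p = 0.0470, rho 0.71, exact permutation p = 0.0881, adjusted p = 0.132) and 0.34 indoors (exact permutation p = 0.460, adjusted p = 0.460, rho 0.11, exact permutation p = 0.840, adjusted p = 0.840). The difference between the groups in these relations was not tested.

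Without the 2 animals farthest from the median of the first gene, r of *ACACB* with *CPT1B* was 0.70 outdoors (exact permutation p = 0.158, n = 5) and 0.07 indoors (exact permutation p = 0.925, n = 5). That of *MLYCD* with *CPT1B* was 0.34 outdoors (exact permutation p = 0.650, n = 5) and -0.02 indoors (exact permutation p = 0.975, n = 5). None of these passed at n = 5. Outdoors, r of *ACACB* with *CPT1B* was near its value over all 7 animals without replicates 1 and 6, while that of *MLYCD* with *CPT1B* was far lower without replicates 1 and 7. The animals left out thus differed, and the remaining outdoor animals spanned only 9.01 to 9.13 for *MLYCD*, against 9.01 to 9.43 over all 7. The contrast therefore cannot tell whether either relation rested on the animals left out. Indoors, replicate 7 had the lowest *CPT1B* (8.98) beside the second highest *MLYCD* (8.88).

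**Figure D3:**
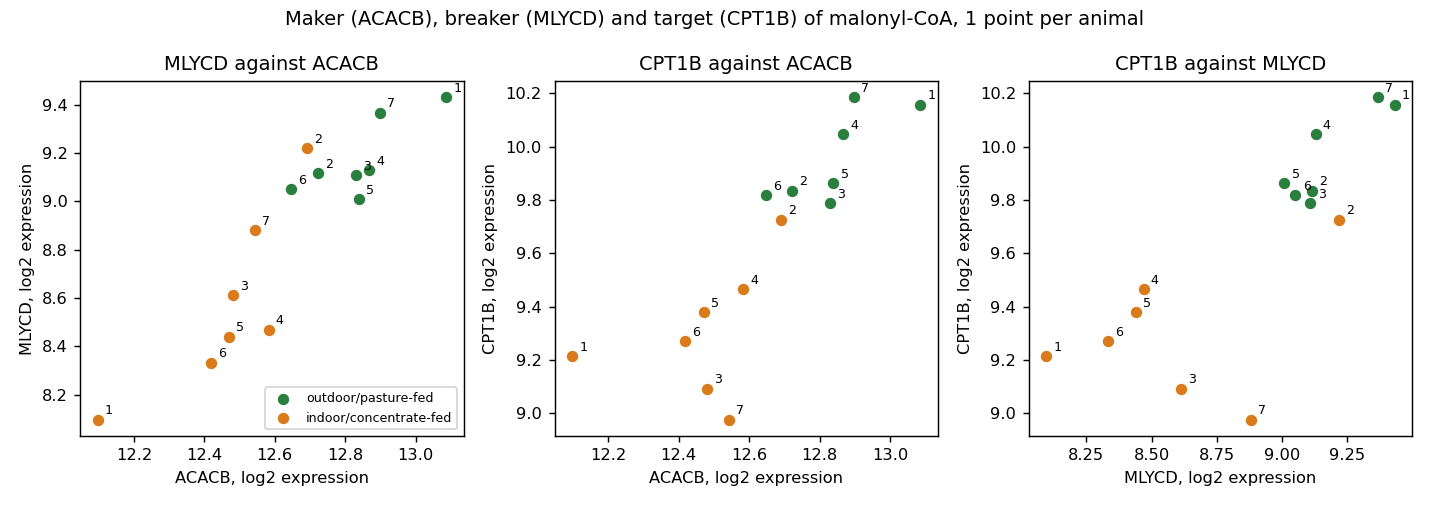
Log2 expression of *MLYCD* against *ACACB* (left), *CPT1B* against *ACACB* (middle) and *CPT1B* against *MLYCD* (right), 1 numbered point per animal, outdoor/pasture-fed in green and indoor/concentrate-fed in orange. Outdoor replicates 1 and 7 lie at the top right of each panel, and indoor replicate 2 lies beside the outdoor animals.

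The same few animals were high for most of the 8 genes. Outdoor/pasture-fed replicate 1 was the highest of its group for 6 of the 7 varying genes, all but *CPT1B*, for which replicate 7 was highest. Indoor/concentrate-fed replicate 2 was the highest of its group for 6 of the 7, all but *CPT2*, for which it was the lowest and replicate 4 the highest. Indoor/concentrate-fed replicate 1 was the lowest of its group for *ACACB* and *MLYCD*, and replicate 7 for *CPT1B* and *SLC25A20*. No animal of either system was lowest for more than 2 of the 7 genes. Over the varying probe sets, the difference between 2 indoor arrays had an SD of 0.37 to 0.50 with replicate 2. Without it the SD was 0.31 to 0.44. Between outdoor arrays it was 0.36 to 0.43 with replicate 5 and 0.25 to 0.37 without it. Pairs with outdoor replicate 1 had 0.25 to 0.40. The part of such whole-array departures in the values of these genes was not tested.

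**Figure D4:**
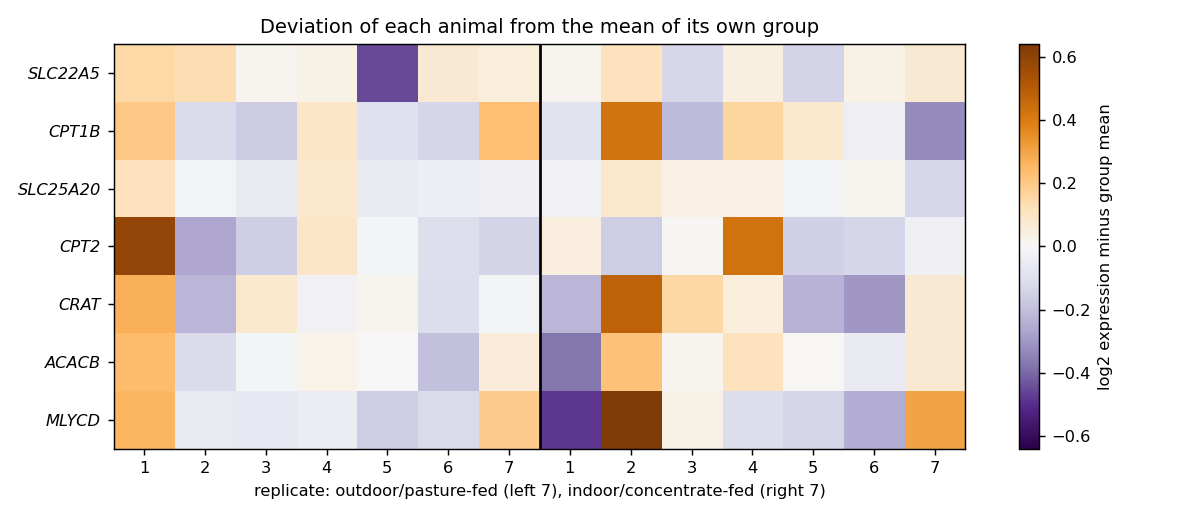
Log2 expression of the 7 varying genes (rows) in each animal (columns, replicate numbers) minus the mean of the animal's own group, outdoor/pasture-fed left of the line and indoor/concentrate-fed right of it. Outdoor replicate 1 is above its group mean for all 7 genes and indoor replicate 2 for 6, all but *CPT2*.

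The genes most alike to *CPT1B*, *ACACB* and *MLYCD* across animals were ranked by Pearson's r over the 14 arrays after each group mean was taken off, among 4912 singly named probe sets with an SD above 0.1. These values are descriptions, and the genes share the arrays. Nearest to *CPT1B* came *SREBF1*, the sterol-responsive activator of fatty acid synthesis genes (r = 0.82), *TMEM120B* (0.78), the tumour suppressor folliculin *FLCN* (0.77), the transcription factor *KLF11* (0.76) and the phosphate transporter *SLC20A1* (0.75). Of these, *KLF11* was higher outdoors by 0.87 (SE 0.11, adjusted p = 0.0202 from limma), whereas *SREBF1* differed by 0.19 (SE 0.22, adjusted p = 0.807). The study had listed *KLF11* as higher in the pasture-fed group on the same arrays, by another probe set, so this is no independent evidence. *TMEM120B* differed by 0.01 (SE 0.10), *FLCN* by -0.18 (SE 0.10) and *SLC20A1* by -0.33 (SE 0.14).

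Nearest to *ACACB* came the fatty acid binding protein *FABP5* (r = 0.83), the hydroxylase *JMJD6* (0.82), the phosphatase subunit *PPP1R10* (0.81), *MLYCD* itself (0.79) and *MGARP* (0.78). Between the systems *FABP5*, which the study had also listed as higher in the pasture-fed group, differed by 0.76 (SE 0.13, adjusted p = 0.105 from limma). *MGARP* differed by 0.26 (SE 0.19), *JMJD6* by -0.25 (SE 0.09) and *PPP1R10* by -0.29 (SE 0.27). Nearest to *MLYCD* came *SUGT1* (0.92), the chaperonin subunit *CCT3* (0.90), the co-chaperone *STIP1* (0.90), *PRICKLE3* (0.89) and the collagen-modifying enzyme *PLOD1* (0.88). The last 5 genes had the opposite sign to *MLYCD* between the systems. *STIP1* differed by -0.56 (SE 0.18, adjusted p = 0.274 from limma), *CCT3* by -0.36 (SE 0.17, adjusted p = 0.453) and *SUGT1* by -0.32 (SE 0.15, adjusted p = 0.450), while *MLYCD* had a higher mean outdoors.

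Genes before and after the shuttle also tended to higher outdoor means. Read by its brightest probe set alone, no gene of these lists passed over all or among the varying probe sets. Here and in the lists below, counts are of varying genes with an unadjusted p under 0.05 in the limma fit to all probe sets. Of all varying probe sets, 9.23% were higher and 10.7% lower outdoors at that p, and 47.5% had a positive difference. Of 14 beta-oxidation enzymes that act after the shuttle, 14 varied, all 14 had a positive difference (median 0.25), and 9 were higher outdoors and none lower. *HADHA* of the trifunctional protein differed by 0.48 (SE 0.13, adjusted p = 0.213 from limma) and the short chain dehydrogenase *ACADS* by 0.31 (SE 0.09, adjusted p = 0.234). Of 10 measured genes of fatty acid uptake and activation, 6 varied (median 0.29), with 4 higher and none lower. The transporter *SLC27A6* differed by 1.95 (SE 0.59, adjusted p = 0.249 from limma) and *CD36* by 0.33 (SE 0.09, adjusted p = 0.219). *ACSL3* differed by 0.26 (SE 0.08, adjusted p = 0.114 from limma among the varying probe sets). The study called this gene higher in the pasture-fed group by another probe set, which was not read here.

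Among the other carnitine genes 4 of 8 were measured, and the 3 that varied were all higher outdoors (median 0.16). These include *TMLHE*, which starts carnitine synthesis, at 0.12 (SE 0.04, adjusted p = 0.306 from limma), and *ALDH9A1*, which acts later in it, at 0.27 (SE 0.11, adjusted p = 0.382). Genes that supply or use malonyl-CoA showed no such lean. Of 10 measured, 6 varied, 2 with a positive and 4 with a negative difference (median -0.12), and none of the 6 had an unadjusted p under 0.05. The acetyl-CoA synthetase *ACSS2* differed by -0.20 (SE 0.13, adjusted p = 0.627 from limma), and the mitochondrial malonyl-CoA synthetase *ACSF3* did not vary (SD under 0.01). For *ACSF3* limma gave a difference of 0.003 with an unadjusted p of 0.0146 and an adjusted p of 0.300.

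Of AMP-activated protein kinase, which phosphorylates and inhibits the carboxylases, and its upstream kinases, 5 of 11 genes were measured and 2 varied, both with a negative difference. *PRKAB1*, a regulatory subunit, differed by -0.11 (SE 0.08, adjusted p = 0.636 from limma), and the kinase partner *STRADA* did not vary. Of 10 measured genes of mitochondrial content all 10 varied with a positive difference (median 0.15, 7 higher and none lower). *UQCRC2*, a subunit of respiratory complex III, differed by 0.25 (SE 0.06, adjusted p = 0.190 from limma) and *ATP5F1A* of the ATP synthase by 0.03 (SE 0.01, adjusted p = 0.234). In the limma fit to the varying probe sets alone, the adjusted p was 0.0868 for *UQCRC2* and 0.609 for *ATP5F1A*. The mean of these 10 genes was 12.49 to 12.75 in the outdoor/pasture-fed and 12.37 to 12.68 in the indoor/concentrate-fed animals.

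**Figure D5:**
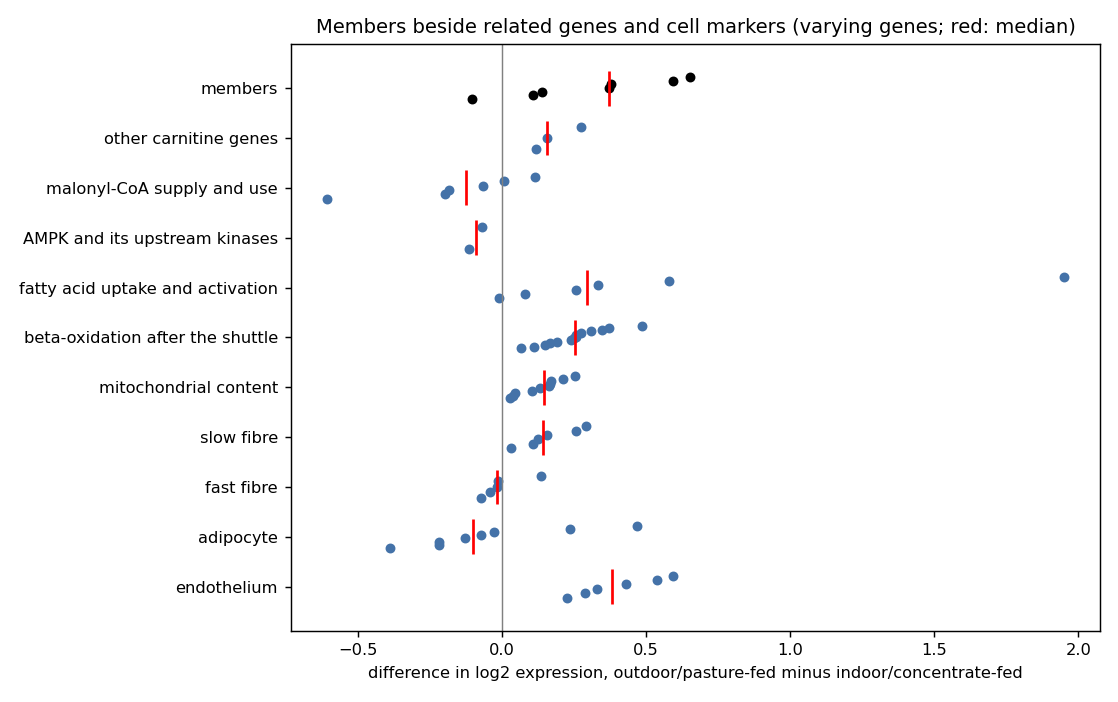
Difference in log2 expression, outdoor/pasture-fed minus indoor/concentrate-fed (horizontal axis), of the varying genes of each list, 1 point per gene, with the median in red. The 7 varying carnitine and malonyl-CoA genes (black) have a median of 0.37, the endothelial markers one of 0.38 and the fat cell markers one of -0.10.

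Markers of other cells of the muscle were set beside these values, since in whole muscle fewer cells of a type and less RNA per cell cannot be told apart. Endothelial markers had higher means outdoors. Of 8 measured, 6 varied, and all 6 had a positive difference and an unadjusted p under 0.05 (median 0.38), while *VWF* and *EGFL7* did not vary. *PECAM1* differed by 0.54 (SE 0.11, adjusted p = 0.147 from limma), *CDH5* by 0.59 (SE 0.15, adjusted p = 0.200) and *TEK* by 0.43 (SE 0.12, adjusted p = 0.235). The mean of the 6 ran from 8.83 to 9.22 outdoors and from 8.32 to 8.85 indoors, and the part of this difference in those of the carnitine and malonyl-CoA genes was not tested.

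Fat cell markers had no unadjusted p under 0.05. All 8 measured varied (median -0.10), and their mean ran from 7.26 to 7.81 outdoors and from 7.18 to 8.46 indoors. *SCD* differed by -0.03 (SE 0.24), *FABP4* by -0.22 (SE 0.48) and *LIPE* by 0.47 (SE 0.26). Leukocyte markers had a positive difference for all 5 that varied of 6 measured (median 0.13) and no unadjusted p under 0.05. Their mean ran from 6.90 to 7.54 outdoors and from 6.50 to 7.45 indoors, with *PTPRC* at 0.31 (SE 0.24), *CD14* at 0.10 (SE 0.23) and *CD3E* at 0.13 (SE 0.08). Of 5 red blood cell markers 2 varied, with *AHSP* at -0.12 (SE 0.06), *ALAS2* flat, haemoglobin *HBB* at 5.51 outdoors and 5.53 indoors, and a mean of 6.17 to 6.60 outdoors and 6.28 to 6.65 indoors.

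Skeletal muscle markers lay far above the array medians of 6.77 to 6.84 in both systems. Of 9 measured skeletal muscle markers 3 varied, all with a negative difference (median -0.01), 1 of them with an unadjusted p under 0.05. Their mean ran from 13.48 to 13.62 outdoors and from 13.46 to 13.80 indoors. *TNNC2* had a mean of 14.41 outdoors and 14.42 indoors and the enolase *ENO3* one of 14.22 in both. Slow fibre markers had a positive difference for all 6 that varied of 7 measured (median 0.14), 1 with an unadjusted p under 0.05. The slow calcium pump *ATP2A2* differed by 0.16 (SE 0.06, adjusted p = 0.341 from limma), *TNNC1* by 0.03 (SE 0.02) and *MYH7* by 0.11 (SE 0.09). Their mean was 13.13 to 13.33 outdoors and 12.48 to 13.29 indoors. Of 8 measured fast fibre markers 5 varied, 1 higher and 3 lower outdoors at an unadjusted p under 0.05 (median -0.02). *MYH1* differed by 0.14 (SE 0.03, adjusted p = 0.148 from limma), and *TNNT3* did not vary. The other 4 that varied had negative differences, *TNNC2* of -0.01 (SE 0.004), *TNNI2* of -0.07 (SE 0.03), *ACTN3* of -0.04 (SE 0.02) and *ATP2A1* of -0.02 (SE 0.03), the first 3 of them with the unadjusted p under 0.05. The mean of the 5 was 13.79 to 13.87 outdoors and 13.78 to 13.86 indoors.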

How the data were processed

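The authors hybridised 1 array per animal and used FARMS, a factor analysis method, after quantile normalisation to give each probe set 1 value. The deposited table holds these as log2 values. FARMS returns nearly constant values for probe sets whose probes share no variation across arrays. The selection of informative probe sets in the study could not be repeated without probe-level data. Of 24128 probe sets, 112 controls were left out. No logarithm or normalisation was added, and the array medians ran from 6.77 to 6.84. The number of arrays limits the precision.

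Groups were compared by limma 3.58.1 (lmFit, eBayes; R 4.3.3) over all 24016 probe sets. Benjamini-Hochberg adjusted p-values under 0.05 passed. Exact permutation tests were two-sided, over 3432 assignments of the arrays or 5040 pairings of 7 animals (120 of 5). Names come from the array's annotation, which gives 13292 probe sets 1 symbol, 86 several and 10638 none. A gene identifier matched the reference table of ARS-UCD2.0 for 13263, and no symbol changed. Members and gene lists were chosen with earlier results of these data known. Named are all members, in each pathway list the 2 genes with the smallest p, in each marker list the 2 highest and the 1 with the smallest p, and the 5 genes most alike to *CPT1B*, *ACACB* and *MLYCD*. Lists cover carnitine genes, malonyl-CoA supply, AMPK, fatty acid uptake, beta-oxidation, mitochondrial content, and markers of muscle, slow and fast fibres, fat cells, endothelium, leukocytes and red blood cells. Alternatives were other priors, filters by SD and mean, renewed normalisation, centring, array weights, a replicate block, other probe sets and leaving out each array. Quantitative PCR was not used here.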

Additional observations from a re-analysis of the deposited data

Results flagged for a closer look

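Of 18 groups of 7 values (9 varying probe sets in both systems), 3 held an animal apart from the rest by Dixon's ratio, the gap to the nearest animal over the whole range (above Dixon's critical value). Chance gives about 1 in 20 such groups. For *CPT2*, outdoor/pasture-fed replicate 1 was at 9.25, above the next highest at 8.75 (ratio 0.579), and indoor/concentrate-fed replicate 4 was at 8.71, above the next highest at 8.33 (ratio 0.649). For *SLC22A5*, outdoor/pasture-fed replicate 5 was at 9.40, below the next lowest at 9.87 (ratio 0.785), while the second probe set of the gene placed that animal at 6.94, next to replicate 7 at 6.97.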

How the results depend on the processing

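For the 7 varying genes, all 169 alternative differences kept their sign, and 6 passed the threshold, all of them for *CPT1B*. The other priors, the filters and the replicate block leave the difference itself unchanged. A sign could turn only with renewed normalisation, centring, array weights, other probe sets or a left-out array. Over all probe sets 4 passed, and the count was 33, 32 and 37 among probe sets with an SD above 0.01, 0.05 and 0.1, 17 among those with a mean above the median, 7 after centring, 17 with array weights, and 1 to 8 on leaving out an array. Of the 8 genes, 1 passed, *CPT1B*, with each of the 3 SD filters (0.65, adjusted p 0.0249, 0.0212 and 0.0192 from limma), with the mean filter (0.65, adjusted p just under the threshold) and with array weights (0.67, adjusted p = 0.0396). On leaving out an array, 0 to 1 of the 8 passed, and *CPT1B* differed by 0.60 to 0.72. Among varying probe sets, leaving out an array gave 0 to 2 genes and again 0.60 to 0.72 for *CPT1B*, a choice made after seeing the data. *ACACA* turned to -0.00204 with renewed normalisation and to -0.00405 after centring, which move a flat probe set with its array.

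Animals of the same number share only that number in the labels, and their deviations correlated by -0.18 to 0.24, each with its own number best in 2 of 7. With a replicate block 2 probe sets passed over all, and among varying probe sets none of the 8 genes (0) passed, with *CPT1B* at 0.65 and an adjusted p of 0.107 from limma.

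The unequal shift of *ACACB* and *MLYCD* passed with renewed normalisation (-0.24, exact permutation adjusted p = 0.0497) and ran from -0.29 to -0.18 on leaving out an array. That pass may rest on counting the pair with the flat *ACACA* in the adjustment. That of *CPT1B* and *MLYCD* ran from -0.0457 (without indoor/concentrate-fed replicate 7) to 0.12, that of *CPT1B* and *ACACB* from 0.21 to 0.33, and that of *ACACB* and *ACACA* from 0.31 to 0.41. Each of the 4 relations past the threshold lost its call by Spearman's rho (0.75 and 0.89 for *ACACB* with *MLYCD* outdoors and indoors, 0.86 for *ACACB* with *CPT1B* outdoors, 0.71 for *MLYCD* with *CPT1B* outdoors) and without the 2 farthest animals (0.47, 0.50, 0.70 and 0.34). The first 3 lost it with renewed normalisation (0.71, 0.83 and 0.76). *MLYCD* with *CPT1B* indoors turned to -0.0217 without the 2 farthest animals. Causes were not tested.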
